A study of Mus musculus with 9 samples.

Results

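The complement genes described here are C3, C4b, C2, C7, C1ra, Cfb, Cfd, Serping1 and Cd55, 9 of the 23420 genes counted in 9 RNA sequencing libraries of mouse mesenchymal cells. They were taken as a named set of components and regulators of the pathway. The choice was made with earlier results of these data known. Each gene was present in the count tables under that symbol. The cells came from C57BL/6 mice of 3 to 4 weeks, with no treatment or engineered allele named for any group, and were sorted from thymus, from bone (femur, tibia and pelvis) and from truncal skin (dermis of abdomen and back), with 3 libraries per tissue. At least 25000 cells were collected per sample, positive for SCA1 and negative for CD31, EpCAM and the blood cell antigens CD45, CD11b, GR-1, B220, CD2, CD4, CD41 and TER119. The thymus libraries are called 2, 3 and 1-3, and what the last name stands for is not stated. If it pools other samples, the thymus values rest on fewer than 3 separate samples. Thymus and bone were taken apart with the same enzymes, and bone fragments were also crushed and red cells lysed, so the way of release differs between tissues together with the tissue and cannot be told apart from it. How the skin was digested is not stated in the text used here.

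Complement is a cascade of plasma and surface proteins that marks targets, calls in phagocytes and opens membranes. It is started by antibody complexes (classical pathway), by sugars (lectin pathway) or by slow turnover of its central component (alternative pathway), and all routes meet at the cleavage of C3. The liver supplies most of the circulating proteins, while fibroblasts and other stromal cells also make components in their own tissue. Complement regulators in plasma and on membranes keep the cascade from attacking the body's own cells.

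Levels are in CPM, read counts scaled by library size and TMM factor, and comparisons between genes use the authors' RPKM, which corrects for gene length. Log2 fold changes are given as first tissue minus second, ± SE, with an approximate SE derived from the F statistic of the test. Adjusted p-values are those of edgeR's quasi-likelihood test with Benjamini-Hochberg adjustment over 15635 genes, and a gene was called at an adjusted p under 0.05. Gene reads per library ranged from 78757872 to 116759235. No source used here says whether the libraries of a tissue are separate animals, so the p-values measure the spread between these libraries, which may be technical. A floor set by a count of 0 covers the error of counting alone.

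The label of the cells was checked on fixed markers. All 10 stromal markers were at 1 CPM or more in each tissue, and their summed level was 51487 to 54623 CPM in the thymus libraries. It was 64411 to 66036 in those of bone and 331980 to 368780 in those of skin. Most of the skin sum was Col1a1, Col1a2 and Col3a1, with means of 97246, 80380 and 154320 CPM. Thy1 and Ly6a were also called higher in skin than in either other tissue. Pdgfra and Pdgfrb were called higher in thymus than in either, and Lum was not called in any comparison. Genes of other cells were present too. In thymus, bone and skin, macrophage markers summed to 27.4 to 60.3, 321 to 395 and 63.2 to 118 CPM. Granulocyte markers gave 9.23 to 10.1, 2819 to 3890 and 0.791 to 1.95, and lymphocyte markers 56.0 to 164, 80.5 to 119 and 0.205 to 0.669. Endothelial markers gave 68.0 to 105, 64.6 to 80.5 and 251 to 347, and epithelial markers 23.1 to 24.8, 1.66 to 2.9 and 21.5 to 70.2. Most of the endothelial sum in skin was Tek (mean 236 CPM) and Kdr (39.6). These were called higher in skin than in either other tissue, whereas Pecam1 and Emcn were called lower there than in either. Mural markers, of the cells around vessels, gave 1325 to 1613, 426 to 440 and 245 to 279, and erythroid markers at most 10.2 in any library. The summed level of 8 hepatocyte markers was at most 4.56 CPM in any library, and Alb, the albumin gene, was at 0 reads in bone and skin. In such bulk samples, more cells of a type and more RNA per cell cannot be told apart, and the part of these other cells in the results was not tested.

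C3, the component at which all routes of activation meet, stood out by level. In CPM it was at 22620 in thymus 1-3, 25397 in thymus 2 and 22568 in thymus 3. The bone libraries held 866, 559.85 and 634, and the skin libraries 1694, 2727 and 3557. The 3 tissues did not overlap, with thymus highest and bone lowest. C3 was higher in thymus than in bone by 5.10 ± 0.30 (34.3-fold, adjusted p = 3.48e-07) and higher than in skin by 3.15 ± 0.27 (8.85-fold, adjusted p = 4.10e-06). Bone was below skin (-1.95 ± 0.26, adjusted p = 8.46e-05). All 3 calls held in each of 20 alternative analyses. The summed level of mural markers was also highest in thymus, as given above, but the list was mixed. Des, Abcc9, Notch3 and Myh11 were called higher in thymus than in either other tissue. Rgs5 (15.3 CPM in thymus, 72.2 in bone) and Cspg4 (23.8 and 212) were called lower in thymus than in bone. Kcnj8 had its highest mean in skin (86.5, with 58.7 in thymus), without a call between these 2 tissues. The part of mural cells in the C3 level was not tested. By RPKM, C3 was the first of 23034 genes in thymus 2 and in thymus 3 and the fourth in thymus 1-3, while it took places 223 to 332 in the bone libraries and 84 to 160 in those of skin. Of all gene reads, C3 took 2.50 to 2.91% in thymus, whereas bone gave 0.0690 to 0.100% and skin 0.130 to 0.264%.

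**Figure D1:**
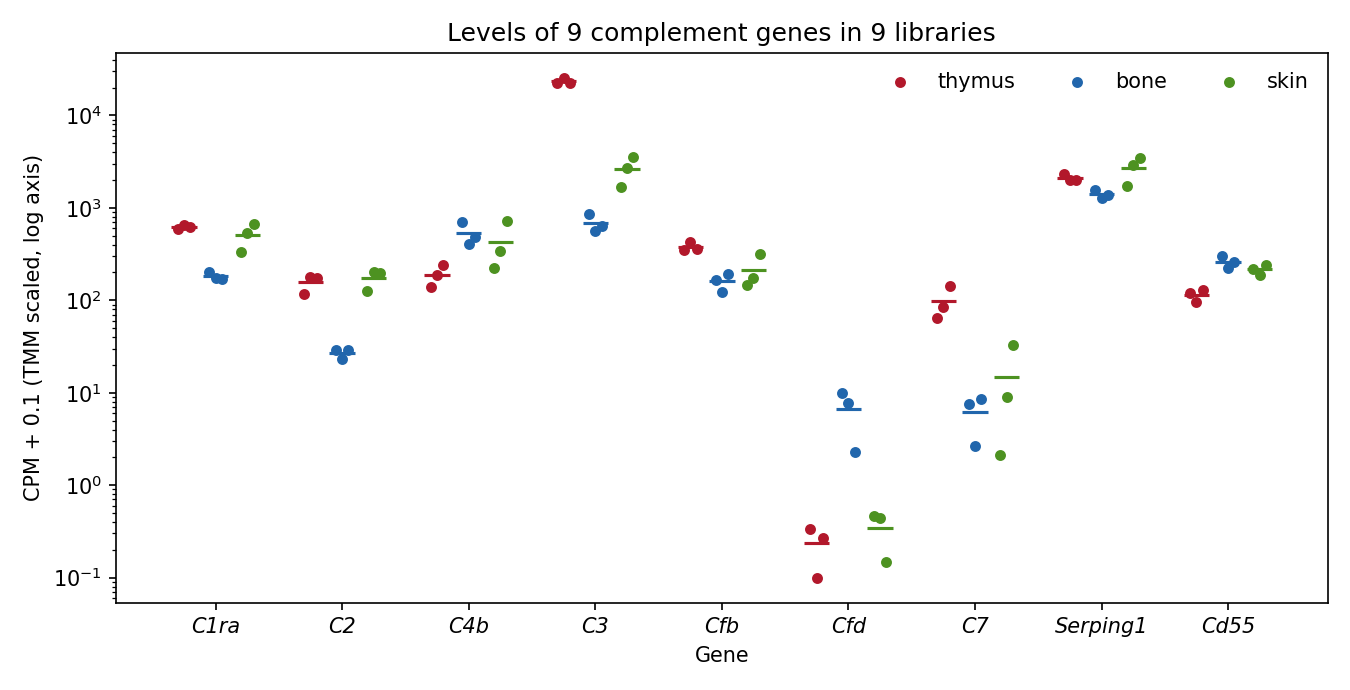
Level of each of the 9 genes in every library, as CPM plus 0.1 on a log axis, with points for libraries, colours for tissues and a bar at the mean of 3 libraries. C3 lies at 22568 to 25397 CPM in thymus, apart from both other tissues, whereas Serping1 lies at 1282 to 3463 CPM over all 9 libraries.

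C3 lies on chromosome 17, 57203973 to 57228136 in mm10, on the minus strand. C3, C7 and Cfb were called higher in thymus than in each other tissue, and the upstream sequences matched for C3 and C7 are shown. These are the 250 bases before the annotated start from RefSeq (GRCm38.p6), 5′ to 3′ on the gene's strand, for C3 at chr17:57228137-57228386 and for C7 at chr15:5063774-5064023, both minus strand. Capitals mark matches to the motifs searched.
C3: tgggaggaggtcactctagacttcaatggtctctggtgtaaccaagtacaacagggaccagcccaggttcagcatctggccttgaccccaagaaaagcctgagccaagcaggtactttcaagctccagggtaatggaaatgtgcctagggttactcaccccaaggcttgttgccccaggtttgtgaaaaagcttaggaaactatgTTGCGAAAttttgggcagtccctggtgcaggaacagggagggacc
C7: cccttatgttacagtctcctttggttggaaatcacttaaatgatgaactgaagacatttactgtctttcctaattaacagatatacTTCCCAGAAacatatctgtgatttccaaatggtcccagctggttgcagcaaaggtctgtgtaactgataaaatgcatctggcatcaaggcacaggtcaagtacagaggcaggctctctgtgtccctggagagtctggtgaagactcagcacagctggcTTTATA
RefSeq entries were matched for 5 of the 9 genes, C3, C7, C1ra, Cfd and Cd55. Each was searched on both strands for TATAAA, for the interferon gamma motif TTCNNNGAA, for the interferon core GAAANNGAA, for the C/EBP motif TTGCNNAA and for the NF-kB motif. The C3 sequence held 1 match, a C/EBP motif from -45 to -38 counted from the start, a motif found in 9.56% of 32851 promoters. The C7 sequence held an interferon gamma motif from -164 to -156 (7.02% of promoters) and TATAAA on the opposite strand ending at -1 (12.4%). C1ra, Cfd and Cd55 held none of the 5, and none of the 5 genes held the interferon core (7.13% of promoters) or the NF-kB motif (7.25%). A match is a description of the letters and not a binding site.

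C3 also made up 85.9 to 87.6% of the reads on these 9 genes in thymus. Bone gave a share of 20.0 to 22.6% and skin one of 37.9 to 38.7%, which does not depend on scaling between libraries. Serping1 had more reads than C3 in the 3 bone libraries, in skin 1 and in skin 2, while in skin 3 C3 had 308432 and Serping1 300283. Per length, Serping1 exceeded C3 in all bone and skin libraries, with 734 to 840 RPKM against 113 to 165 in bone and 680 to 1330 against 234 to 480 in skin. Together the 9 genes took 2.91 to 3.32% of gene reads in thymus. In bone they took 0.346 to 0.444%, and in skin 0.344 to 0.683%.

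**Figure D2:**
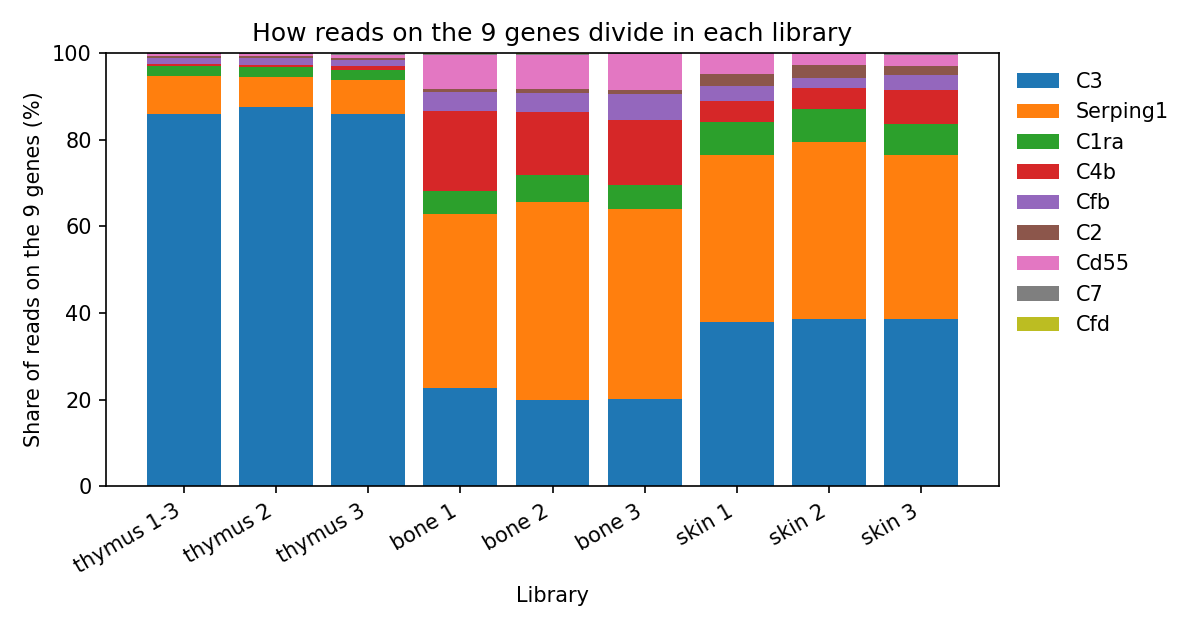
Share of the reads on the 9 genes taken by each gene, in percent, for each of the 9 libraries on scaled counts. C3 fills 85.9 to 87.6% of the bar in the thymus libraries, and Serping1 takes a larger part than C3 in every bone library.

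Thymus was compared with bone first. Of the 9 genes, 5 were called higher in thymus (C1ra, C2, Cfb, C3 and C7) and 3 lower (C4b, Cfd and Cd55), where 16.5% of all genes tested were called higher and 16.1% lower. The median log2 fold change of the 9 was 1.23, against 0.02 over all genes tested. Between thymus and skin, 3 were called higher in thymus (Cfb, C3 and C7) and 2 lower (C4b and Cd55), beside 19.3% and 18.3% of all genes. The median there was -0.16, against 0.03. Between bone and skin, 1 was called higher in bone (Cfd) and 4 lower (C1ra, C2, C3 and Serping1), beside 23.7% and 23.4% of all genes, and the median was -0.94 against 0.03. All 9 genes passed the filter on low counts, and also did so with the libraries of any 1 tissue left out. The comparisons share libraries in pairs and are not independent of each other. Because the 9 were chosen with earlier results of these data known, the shares and medians beside them are a description and not a test. In both comparisons with skin the scaling matters, because the median of all genes moved by 0.63 (thymus minus skin) and 0.69 (bone minus skin) when library size alone was used. The calls over all genes then split into 7219 higher and 1239 lower in thymus than in skin, against 3013 and 2865 with TMM, and into 7474 and 1391 for bone against skin, where TMM gave 3702 and 3661. RPKM values, which rest on library size too, gave 6476 and 1173 for thymus against skin and 6213 and 1534 for bone against skin. Directions against skin are thus relative to the bulk of genes.

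**Figure D3:**
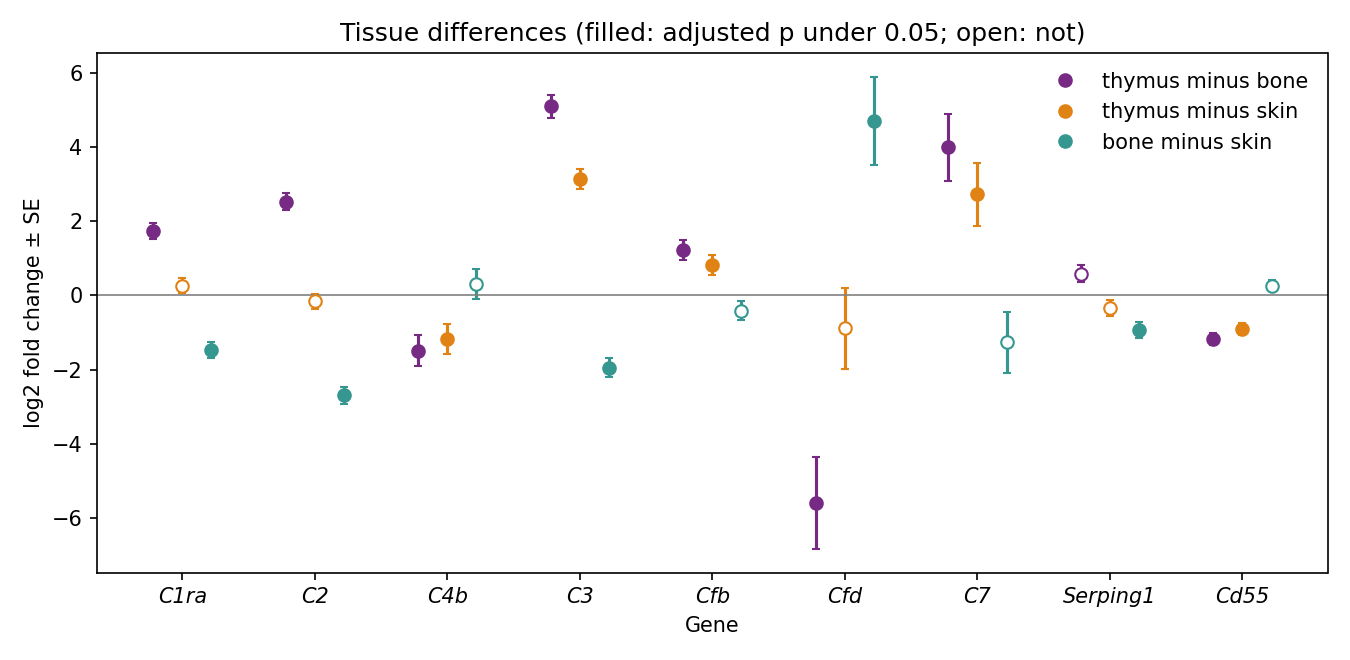
Log2 fold change ± SE of each gene in the 3 tissue comparisons, first tissue minus second, with filled points for adjusted p under 0.05. In thymus minus bone C3 has the highest value (5.10) and Cfd the lowest (-5.60), and C2 is near 0 between thymus and skin.

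The classical proteases C1r and C1s form the catalytic part of the C1 complex, in which C1r activates C1s. C1ra, one of the mouse genes for C1r, was at 586, 648 and 614 CPM in thymus 1-3, 2 and 3, at 204, 175 and 171 in the bone libraries and at 336, 536 and 664 in the skin libraries. Bone lay below every library of the other tissues, whereas thymus and skin overlapped. C1ra was higher in thymus than in bone (1.75 ± 0.21, 3.36-fold, adjusted p = 7.24e-05), and bone was below skin (-1.48 ± 0.21, adjusted p = 0.000147). Thymus and skin were not called apart (0.27 ± 0.21, adjusted p = 0.348), but they were with library size only (0.91, adjusted p = 0.00235) and on RPKM. Its partner C1s was measured, with 1703 ± 243 CPM for thymus, 347 ± 50.1 for bone and 811 ± 188 for skin (SD, n = 3). It differed in every comparison (thymus minus bone 2.30 ± 0.20, thymus minus skin 1.07 ± 0.20, bone minus skin -1.23 ± 0.20). Per length, C1s exceeded C1ra 2.31 to 2.79 times in thymus, 1.64 to 1.82 times in bone and 1.36 to 1.67 times in skin. The thymus ratios did not overlap those of the other tissues (exact permutation p = 0.1, two-sided, the smallest p that 3 against 3 can give).

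C1ra has a near copy, C1rb, beside it on chromosome 6 (124570430 to 124581044, with C1ra at 124512621 to 124523440). Of the windows of 100 bases along the longest GENCODE M21 transcript of C1ra, 34.5% also occur in transcripts of C1rb, and how reads matching both were counted is not stated. C1rb held 0.823, 8.73 and 5.72 CPM in thymus 1-3, 2 and 3, with means of 2.82 ± 2.34 for bone and 1.04 ± 0.262 for skin. It was called higher in thymus than in skin (2.29 ± 0.80, adjusted p = 0.0418), with overlap.

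C4 and C2 are the substrates of C1s, and their fragments together form the C3-cleaving enzyme of the classical and lectin pathways. C2 was at 116, 179 and 173 CPM in the thymus libraries, at 29.0, 23.1 and 28.7 in bone and at 125, 202 and 197 in skin. Every bone library lay below every other, and thymus and skin overlapped. C2 was higher in thymus than in bone (2.53 ± 0.22, 5.79-fold, adjusted p = 6.91e-06), and bone was below skin (-2.70 ± 0.22, 6.48-fold, adjusted p = 3.22e-06), and both calls held in all 20 alternatives. Between thymus and skin the log2 fold change was -0.16 ± 0.21 (adjusted p = 0.59). Its sign changed with library size only (0.48, adjusted p = 0.0622), on RPKM, and without thymus 1-3.

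C4b, which encodes the C4 protein that binds covalently to surfaces, had the opposite order against bone. It was at 139, 186 and 241 CPM in the thymus libraries, at 706, 405 and 478 in bone, and at 222, 338 and 720 in skin. Thymus lay below every bone library, and skin spanned the values of bone. C4b was lower in thymus than in bone (-1.49 ± 0.41, a 2.80-fold difference, adjusted p = 0.0204), a call lost without thymus 1-3 (adjusted p = 0.0804), thymus 2 (0.0664) or bone 1 (0.0694). Against skin, thymus was called lower as well (-1.18 ± 0.41, adjusted p = 0.0459), although the libraries overlapped. That call was lost in 14 of 20 alternatives, among them library size only (-0.53, adjusted p = 0.29). It was also lost without thymus 1-3 (adjusted p = 0.139), thymus 2 (0.121), thymus 3 (0.058), bone 2 (0.0567), bone 3 (0.0651), skin 2 (0.0608) or skin 3 (-0.57, adjusted p = 0.162). Bone and skin were not called apart (0.31 ± 0.40, adjusted p = 0.559), though they were without skin 3 (0.92, adjusted p = 0.0316) and on RPKM (0.98, adjusted p = 0.0484 with limma). The near copy C4a, on chromosome 17 at 34809092 to 34823454, held on average 0.361, 0.497 and 0.144 CPM in thymus, bone and skin. Of the 100-base windows of C4b, 16.5% are also in C4a.

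Factor B, encoded by Cfb, gives the enzyme part of the alternative pathway convertase and is made ready by the protease factor D, encoded by Cfd. Cfb was at 346, 424 and 360 CPM in the thymus libraries, at 165, 123 and 194 in bone and at 147, 173 and 318 in skin. Every thymus library lay above all others, while bone and skin overlapped. Cfb was higher in thymus than in bone (1.23 ± 0.27, 2.35-fold, adjusted p = 0.00528), a call that held in all 20 alternatives. Against skin it was higher by 0.83 ± 0.27 (1.77-fold, adjusted p = 0.0327). This call was lost without thymus 1-3 (adjusted p = 0.0627), thymus 2 (0.0982), thymus 3 (0.0644), skin 1 (0.0982) or skin 2 (0.117). Bone and skin did not pass (-0.41 ± 0.27, adjusted p = 0.24).

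Cfd, known as adipsin and abundant in fat cells, was close to absent outside bone. It had 24, 0 and 20 reads in thymus 1-3, 2 and 3, and 32, 23 and 4 in the skin libraries, or at most 0.36 CPM. The bone libraries held 1006, 890 and 200 reads, which is 9.77, 7.59 and 2.17 CPM. Cfd was lower in thymus than in bone (-5.60 ± 1.24, adjusted p = 0.00567) and higher in bone than in skin (4.71 ± 1.19, adjusted p = 0.00771), without overlap. These low counts make the size uncertain: thymus minus bone was -6.26 without thymus 1-3, -5.01 without thymus 2 and -2.64 on log2 of RPKM plus 1. Thymus and skin were not called apart (-0.88 ± 1.09, adjusted p = 0.571). The summed level of 8 adipocyte markers overlapped between bone and skin, with 11.8 to 19.7 CPM for thymus, 19.1 to 35.5 for bone and 25.5 to 41.1 for skin. Of the 8, 6 were tested, and 1, Adipoq, was called between bone and the other tissues. The levels of Fabp4, a fatty acid carrier gene, were 8.42, 12.4 and 21.7 CPM in thymus, bone and skin, and those of Lipe, a lipase gene, 6.17, 7.72 and 11.0. Plin1, the perilipin gene, was at 0.865, 1.18 and 2.08. Cidec, another of these markers, was at 0.0196, 0.517 and 0.0719, with bone above the other tissues without overlap but no call. Adipoq, the adiponectin gene, averaged 4.61 ± 1.95 CPM in bone, against 0.861 ± 0.442 for thymus and 0.376 ± 0.131 for skin. It was lower in thymus than in bone (-2.42 ± 0.60, adjusted p = 0.0087) and higher in bone than in skin (3.61 ± 0.63, adjusted p = 0.000631). Lep, the leptin gene, had 0 reads in all libraries. Granulocyte markers were highest in bone as well, as given above, and the part of either cell type in the Cfd level was not tested.

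C7, which joins the growing membrane attack complex and anchors it in the lipid layer, was at 64.7, 84.2 and 144 CPM in thymus. It was at 7.47, 2.56 and 8.36 in bone and at 2.02, 8.98 and 33.1 in skin. Every thymus library lay above all others, and bone and skin overlapped. C7 was higher in thymus than in bone (4.00 ± 0.90, 16.0-fold, adjusted p = 0.00731), which held in all 20 alternatives. Against skin it was higher by 2.73 ± 0.84 (6.64-fold, adjusted p = 0.0291). That call was lost without thymus 2 (adjusted p = 0.0625), thymus 3 (0.095) or skin 2 (0.102), and with no filter on low counts (0.0676). Without skin 3, the highest skin library, the value was 4.16 (adjusted p = 0.00515). Bone and skin did not pass (-1.27 ± 0.82, adjusted p = 0.233), with the sign turned without skin 3 (0.16, adjusted p = 0.884).

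The genes of the other terminal components were low in all tissues, and are named here after their values were seen. Hc, the mouse gene for C5, averaged 5.61 ± 0.686 CPM for thymus, 0.337 ± 0.307 for bone and 0.383 ± 0.589 for skin, with no call (thymus minus bone adjusted p = 0.0829). C6 was at 0.0689, 0.727 and 0.873 CPM on average in the same order, and C8g at 0.802, 0.698 and 0.594. C8b and C9 had 0 reads in all 9 libraries, where 3 reads over a tissue correspond to 0.00881 CPM for thymus, 0.0096 for bone and 0.0123 for skin.

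Serping1 encodes C1 inhibitor, which blocks C1r, C1s and the lectin pathway proteases. It was one of the most abundant transcripts in all 3 tissues, between places 18 and 43 of 23034 genes by RPKM in every library. It stood at 2343, 1989 and 2022 CPM in thymus, at 1542, 1282 and 1393 in bone and at 1728, 2875 and 3463 in skin. Thymus lay above bone without overlap, and the skin libraries spanned the thymus values. The difference of thymus from bone did not pass (0.59 ± 0.22, adjusted p = 0.0601). It passed in 6 of 20 alternatives: with DESeq2 (adjusted p = 0.0248), with limma on RPKM at both pseudocounts (0.0394 and 0.0408), with only these tissues in the fit (0.00614), without skin 1 (0.00924) and without skin 3 (0.0261). Bone was below skin for Serping1 (-0.94 ± 0.22, adjusted p = 0.00464), a call lost with library size only (-0.24, adjusted p = 0.326) and on RPKM. Thymus and skin did not pass (-0.34 ± 0.22, adjusted p = 0.251), and did without skin 1 (-0.58, adjusted p = 0.0167). Per length, Serping1 exceeded C1ra 4.66 to 6.11 times in thymus, 11.1 to 12.3 times in bone and 7.77 to 8.13 times in skin. The 3 ranges did not overlap (exact permutation p = 0.1 for each pair of tissues, two-sided, the smallest possible).

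Cd55 encodes decay-accelerating factor, a surface protein that breaks up C3-cleaving enzymes. It was at 121, 95.2 and 129 CPM in thymus, at 298, 225 and 257 in bone and at 217, 188 and 243 in skin. Every thymus library lay below all others, and bone and skin overlapped. Cd55 was lower in thymus than in bone (-1.18 ± 0.16, 2.26-fold, adjusted p = 0.000183), which held in all 20 alternatives. It was lower than in skin by a log2 fold change of -0.91 ± 0.16 (adjusted p = 0.000942), a call lost with library size only (-0.28, adjusted p = 0.17) and on RPKM. Bone and skin did not pass (0.27 ± 0.16, adjusted p = 0.194), and did with library size only (0.95, adjusted p = 0.000435). Its near copy Cd55b, listed under the older symbol Daf2, had 1 read in the 9 libraries.

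C2, Cfb and C4b lie close together in the class III part of the major histocompatibility complex on chromosome 17, all on the minus strand. In mm10 C4b spans 34728381 to 34743897, Cfb 34856374 to 34862514 and C2 34862602 to 34882100, so that 87 bases separate Cfb from C2. A GENCODE M21 transcript gene, Gm20547, shares exons with both, covering 42.8% of the exon bases of C2 and 79.5% of those of Cfb, and the count tables have no line for it. On the opposite strand in GENCODE M21, Zbtb12 covers 4.16% of the exon bases of C2, and Gm16083 covers 2.1% of those of Cd55. In the authors' coordinates C2 ends at 34882100 and Zbtb12 starts at 34894559, without overlap. The annotation that was counted thus differs from GENCODE M21 here. Per length, the ratio of C2 to Cfb was 0.351, 0.44 and 0.501 in thymus, 0.181, 0.197 and 0.154 in bone and 0.879, 1.22 and 0.647 in skin. These ranges did not overlap between tissues (exact permutation p = 0.1 for each pair, two-sided, the smallest possible). Of the 10 other genes that start within 50000 bases of this stretch, 9 were tested. None of the 9 was called with a change of 2-fold or more in these comparisons. Called with a smaller change were 1 between thymus and bone, 1 between thymus and skin and 3 between bone and skin. Of all genes tested, 16.5% were called higher and 16.1% lower in thymus than in bone. These shares were 19.3% and 18.3% for thymus against skin and 23.7% and 23.4% for bone against skin. Cyp21a1, named after its values were seen, had 3.92 ± 1.53 in bone minus skin without a call (adjusted p = 0.0529). Its mean was at most 1.17 CPM in a tissue, where large changes can go uncalled.

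**Figure D4:**
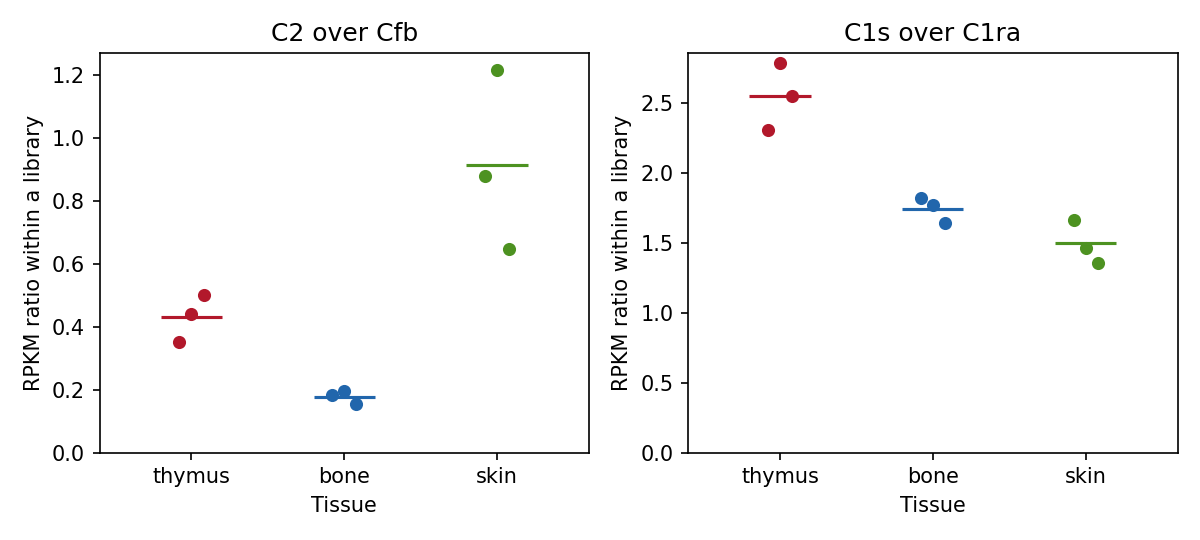
Ratio of RPKM within a library for C2 over Cfb and for C1s over C1ra, with points for libraries and a bar at the mean of each tissue. C2 over Cfb is lowest in bone at 0.154 to 0.197 and highest in skin at 0.647 to 1.22.

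Within skin and within bone, 1 library was the highest for most of these genes. Skin 3 was the highest skin library for 7 of the 9 genes and skin 1 the lowest for 7. Bone 1 was the highest bone library for 7 and bone 2 the lowest for 7. Thymus was more even, with thymus 2 the highest for 4 and thymus 1-3 the lowest for 5. The same order over all genes was not counted, so a shift of a whole library cannot be told apart from one of these genes. In skin 3, the summed markers of macrophages (118 CPM against 77.5 in skin 1 and 63.2 in skin 2), of epithelium (70.2 against 21.5 and 32.0) and of endothelium (347 against 251 and 284) were also the highest of the skin libraries. The mural sum (245 CPM in skin 3 against 262 in skin 1 and 279 in skin 2) and the stromal sum (331980 against 333570 and 368780) were lowest in skin 3. The adipocyte sum was highest in skin 2 (41.1, with 39.3 in skin 3). Among the bone libraries, bone 1 had the highest endothelial sum (80.5 against 64.6 and 71.1), and bone 3 the highest macrophage sum (395 against 383 and 321). The part of these cells in the order was not tested. Over the 9 libraries, genes of like pattern were ranked among 8513 genes with at least 10 CPM on average (8514 for Cfd), and the points fall into 3 tissues. C3 was closest to Tnk2, Tmem132c and Entpd1, which encodes the ectonucleotidase CD39 (r = 0.995, 0.994 and 0.993). Cfb and C7 were each the other's first (r = 0.963), followed by Rab3d and Mvp for Cfb (r = 0.960 and 0.958) and by Mvp and Ctsd for C7 (r = 0.962 and 0.960). C1ra was closest to Tapbp, which encodes tapasin of peptide loading on class I molecules (r = 0.985), Cyb5 and Il10rb (r = 0.982 and 0.981). C2 was closest to Cbr3, Plat, the gene of tissue plasminogen activator, and Sgce (r = 0.989, 0.988 and 0.986). The closest to Cfd were Col11a2, Sned1 and Phex (r = 0.972, 0.972 and 0.957), the first a cartilage collagen gene and the last a bone endopeptidase gene. Cd55 was closest to Acer3, Fzd6 and Nov (r = 0.985, 0.982 and 0.982), and Serping1 to Evc2, Sepp1 and Ube2h (r = 0.976, 0.960 and 0.959). C4b was closest to Snhg8, Mroh1 and Rap1b (r = 0.945, 0.940 and 0.933).

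A list of 50 other complement genes was followed to place these 9 in their pathway. This list too was chosen with earlier results of these data known. It had 49 genes in the count tables, and 37 passed the filter on low counts. In thymus against bone 7 were higher and 10 lower, where 16.5% and 16.1% of all genes were called, and the median log2 fold change was -0.66 against 0.02 over all genes. In thymus against skin 13 were higher and 6 lower (19.3% and 18.3% of all genes), with a median of 0.89 against 0.03. In bone against skin 15 were higher and 3 lower (23.7% and 23.4% of all genes), with a median of 1.43 against 0.03. Among the 15 were Itgam, Itgb2, C5ar1, Cd93, Cfp and Fcnb, known from myeloid or endothelial cells and given below. The part of such cells in these counts and medians was not tested. Of the 49, 18 reached 10 CPM in a tissue.

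Several regulators differed between tissues. Csmd1, encoding a large membrane protein that inhibits complement, averaged 173 ± 34.6 CPM for thymus, 21.4 ± 1.84 for bone and 0.845 ± 0.452 for skin, with calls in all 3 comparisons. Vtn, encoding vitronectin, which binds terminal complexes, was at 95.2 ± 15.8, 1.97 ± 0.92 and 32.9 ± 14.7 CPM in thymus, bone and skin, also called in all 3. Clu, encoding clusterin, another inhibitor of terminal complexes, was at 66.2 ± 2.35, 198 ± 57.4 and 32.1 ± 10.6 and called in all 3. Cr1l, the gene of the rodent surface regulator Crry, was at 71.5 ± 14.4, 52.1 ± 1.59 and 59.9 ± 4.71, and was called between thymus and bone (0.46 ± 0.15, adjusted p = 0.0353).

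Of the lectin and lectin protease genes at 10 CPM or more in a tissue, Colec12 and Masp1 were highest in thymus and Fcnb, given below, in bone. Lower genes, named here after their values were seen, also went both ways. Between thymus and bone, Colec11 was called higher in thymus, and Fcna and Colec10 lower. Colec12, a scavenger receptor with a collectin domain, averaged 729 ± 70.7 CPM in thymus, with 522 ± 74.1 for bone and 86 ± 13.5 for skin. Masp1, encoding a protease of lectin complexes, was at 36.5 ± 5.14, 6.21 ± 3.05 and 2.06 ± 0.609. Both were called in all 3 comparisons. C1rl, a relative of C1r, was highest in skin, at 27.6 ± 4.41 CPM against 11 ± 1.87 in thymus and 9.35 ± 1.39 in bone, and was called in both comparisons with skin.

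The remaining genes at 10 CPM or more are known from myeloid or endothelial cells. Itgam and Itgb2, the chains of complement receptor 3, averaged 73.1 ± 8.48 and 52.8 ± 6.52 CPM in bone, against 1.06 ± 0.453 and 6.97 ± 3.47 for thymus and 3.79 ± 1.52 and 1.91 ± 0.942 for skin. C5ar1, the C5a receptor gene, averaged 12.5 ± 2.29 in bone, against 0.39 ± 0.326 for thymus and 2.22 ± 0.806 for skin. Cd93, encoding a surface protein of endothelial and myeloid cells, averaged 42.9 ± 15.6 in bone, against 4.44 ± 1.1 for thymus and 2.41 ± 0.847 for skin. Cfp, the properdin gene, averaged 15.2 ± 2.62 in bone, against 2.9 ± 1.87 for thymus and 5.62 ± 2.86 for skin. Fcnb, a ficolin gene, averaged 19.3 ± 5.74 in bone and 0.142 ± 0.198 in thymus and had 0 reads in skin, at least 1536-fold lower there on a floor of 3 reads over the group. All of these were called higher in bone than in either other tissue, beside the granulocyte and macrophage sums given above, whose part was not tested. C1qa, C1qb and C1qc, the recognition subunits of C1 and typical of macrophages, had means of 3.67 to 5.27 CPM for thymus, 9.12 to 13.1 for bone and 9.84 to 16.2 for skin. Of these, C1qa was called lower in thymus against skin (-1.89 ± 0.65, adjusted p = 0.0436), and the other comparisons of the 3 genes did not pass. The other 31 genes of the list stayed below 10 CPM on average in every tissue.

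**Figure D5:**
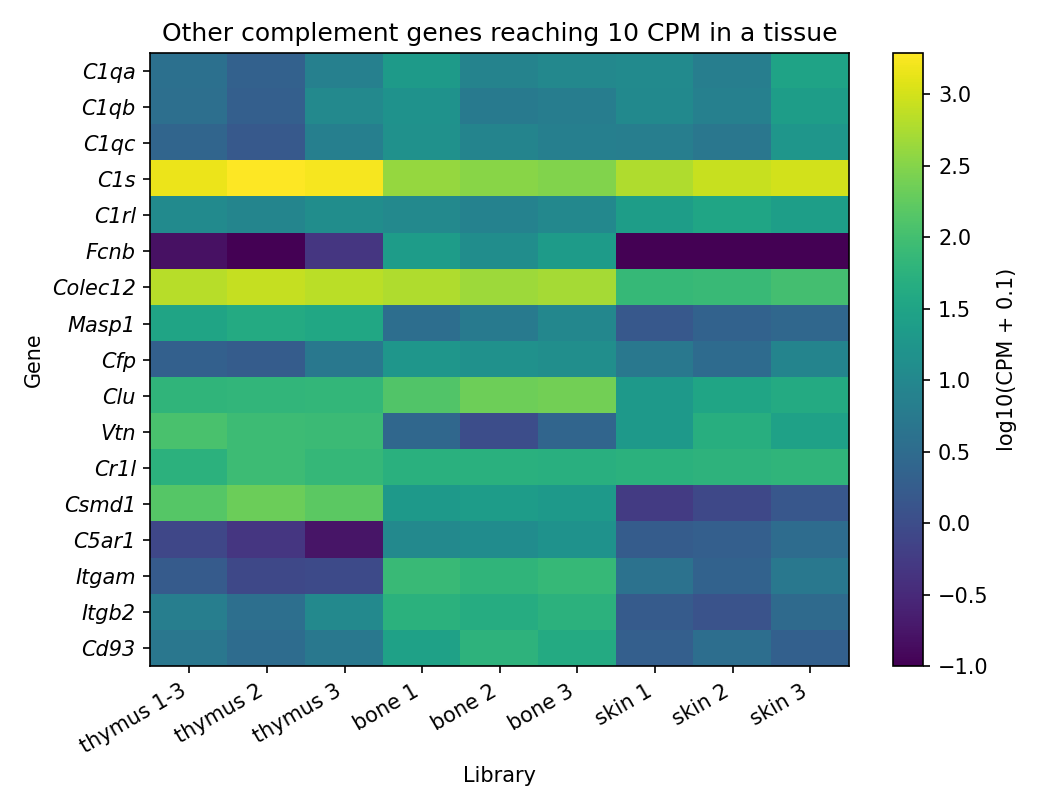
Levels of 17 other complement genes that reached 10 CPM in a tissue, as log10 of CPM plus 0.1, with rows for genes and columns for the 9 libraries. Both Csmd1 and Colec12 have their lowest values in skin, and Itgam, Itgb2 and Fcnb have their highest in bone.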

How the data were processed

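RNA of sorted cells was sequenced in 9 libraries and grouped by tissue from the sample titles. CASAVA 1.8.2 and HTSeq 0.5.4 are listed, without their roles, and mm10 as the build, per the submitters' processing notes. Aligner, annotation and strandedness were not stated, so reads of overlapping genes on opposite strands cannot be told apart. The deposited files give a whole-number count for each of 23420 gene symbols and 5 summary lines, which took 5.05 to 14.8% of reads and were left out. The deposited RPKM tables, made by the authors, also hold an unnamed column of signal, read here from its values as summed read bases, at 98.5 to 99.2 times the read count, used only as a check. Of 23034 symbols with a single RPKM line, 23015 were also counted.

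Counts were fitted with edgeR 4.0.16 (R 4.3.3) on all 9 libraries with 1 mean per tissue, TMM factors and filterByExpr, and tested by the quasi-likelihood test with robust estimation over 15635 genes, at an adjusted p of 0.05. The alternatives, 20 in all, were RLE, upper quartile and library size scaling, other filters (none, or 1 CPM in 3 libraries), DESeq2 1.42.0, limma 3.58.1 on log2 of RPKM plus 1 or 0.1 with and without a filter of 1 RPKM in 3 libraries, the replicate block, only the tissues compared, and each library left out. The 9 genes and the lists were chosen with earlier results of these data known. All 9 were named, with near copies, other complement genes at 10 CPM or more in a tissue, neighbours called by at least 2-fold, and the genes of highest Pearson r with each on log2 of CPM plus 0.5, leaving out predicted genes, receptor segments, haemoglobins and small RNAs. Among the other complement genes, 1 is included in the counts of its list but its values are not reported here. Promoter sequences are RefSeq's, and exons and transcripts GENCODE M21, both of the build of the files. Replicate libraries differed by a chi-square of 92.7 to 297 per degree of freedom, more than sampling noise gives.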

Additional observations from a re-analysis of the deposited data

How the results depend on the processing

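Of 540 alternative values for the log2 fold changes of the 9 genes, 470 kept their direction and their side of the threshold, 37 lost the call, 18 gained it and 15 changed sign, all 15 where no call was made. With library size only, thymus minus skin became 0.48 for C2 and 0.29 for Serping1, and bone minus skin 0.28 for Cfb. Limma on log2 of RPKM plus 1, with and without filter, gave 0.40, 0.27 and 0.20, and plus 0.1 gave 0.40, 0.27 and 0.20. Leaving out 1 library moved C2 in thymus minus skin between -0.35 and 0.0006, Cfb in bone minus skin between -0.61 and 0.0015, and C7 in bone minus skin between -1.78 and 0.16.

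The number called lower in thymus than in bone, 3, became 1 with the replicate block and 2 without thymus 1-3, thymus 2 or bone 1. The number called lower in thymus than in skin, 2, became 0 with library size only and with limma on RPKM (0 with each pseudocount and without the filter). It became 1 with no filter, with the replicate block and with only these tissues, and 1 to 3 with 1 library left out. The number called higher in thymus than in skin, 3, was 1 to 3 with 1 library left out. The number called higher in bone than in skin, 1, became 2 with library size only, 3 with limma on RPKM (2 without the filter), and 1 to 2 with 1 library left out. The replicate numbers do not pair samples by the labels, and same-numbered libraries deviated from their tissue means with r of -0.07 to 0.09. Under the block C4b and Cfd lost their calls against bone (adjusted p = 0.089 and 0.0764), and Cfb and C4b theirs against skin (0.0558 and 0.156). Over all genes the block gave 1663 higher and 1736 lower calls between thymus and bone, against 2584 and 2517. The cause of these changes was not tested.

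Cfd rests on few reads outside bone, with 44 in thymus and 59 in skin. The thymus libraries held at least 92394043 gene reads each and the skin libraries at least 97414733.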
